A study of Mus musculus with 3 samples.

Results

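H3K36me3 was followed over 10 genes of the Notch pathway in fetal pancreatic epithelium of the mouse: the receptors Notch1, Notch2 and Notch3, the ligands Jag1, Jag2, Dll1 and Dll4, the nuclear factor Rbpj and the target genes Hes1 and Hey1. They were chosen by a fixed list of 10 Ensembl identifiers, and all 10 were found among the 24318 rows that carry an identifier. The tissue came from wild-type C57BL/6 embryos, and the epithelial cells were labelled by EpCAM, an epithelial surface protein, and sorted by flow cytometry on embryonic days E11.5 and E13.5 and on day E15.5. Each stage had 1 library made by CUT&Tag, in which an antibody against the mark directs a transposase that cuts and tags nearby DNA, and the labels give a mean of 20000000 reads per sample. The labels do not say whether embryos were pooled. With 1 library per stage no difference could be tested, and every ratio below describes these libraries alone.

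Notch signalling passes between touching cells. A Delta or Jagged ligand on a cell binds a Notch receptor on its neighbour, the receptor is cut, and its inner part enters the nucleus, joins the DNA-binding protein Rbpj and switches on repressor genes of the Hes and Hey families. In the embryonic pancreas the pathway is known for holding progenitor cells back from becoming endocrine cells, with Hes1 repressing the endocrine factor gene Neurog3. H3K36me3 is laid down behind elongating RNA polymerase II, so it lies mainly over the bodies of transcribed genes.

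The deposited columns GB, PR and SE give a mean signal per position of a window, in the authors' units. The length of a GB window was recovered from the values as the shortest length at which each library gave whole multiples of its own smallest increment, called a step here. For 7 of the 10 genes this length equalled the RefSeq gene length on GRCm38.p6 (the assembly also called mm10, on which all positions here are given), and for 5 of those 7 no other gene of the table had that length, among them Notch1 at 45921, Notch2 at 136830 and Rbpj at 101667 positions. A window of that length would cover the RefSeq gene from edge to edge, exons and introns together, although the files do not give its position. Notch3 was 6 positions shorter than its RefSeq gene, and Dll1 was 1109 shorter. Both lengths, 46071 and 8470 positions, equal the distance from a start site listed by RefSeq to the far edge of the gene. For Jag2 the window of 20906 positions was 1104 shorter than the gene and no listed start gave that length. A different RefSeq gene has that length, so the annotation does not bear out the window of Jag2.

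The place of the other windows was read from gene size. In rows with a GB window of 500 to 3000 positions, the PR sum over its 6000 positions was at least the GB sum in 97.5 to 99.4% of rows, depending on library and length class. The share lay between 47.5 and 90.9% for windows of 3000 to 6000 positions. The SE sum over 12000 positions was at least the GB sum in 98.3 to 100% of rows of 3000 to 6000 positions, against 49.9 to 93.2% at 6000 to 12000. These are the lengths at which windows centred on an edge of the gene, reaching 3000 positions inward for PR and 6000 for SE, would stop holding it. The files do not say which edge, so reading PR as the promoter side remains an inference.

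**Figure D1:**
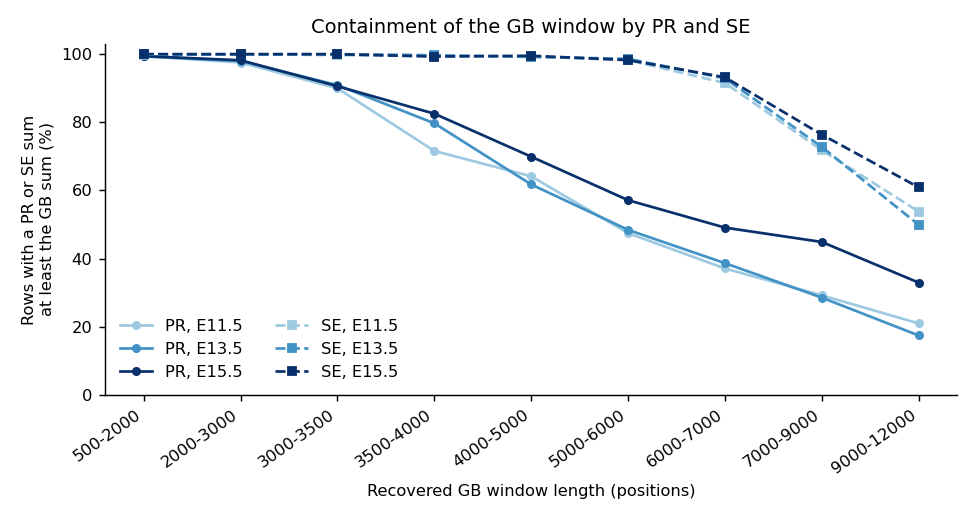
Share of identified rows whose PR sum (circles, solid lines) or SE sum (squares, dashed lines) was at least the GB sum, by recovered GB window length in positions, for the library of each stage, light to dark with age. The PR share drops past 3000 positions and the SE share past 6000 positions in each library.

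Start regions of 4 of the genes are shown. Those of Dll1 and Rbpj are given because the place of their starts within the gene bears on their windows. Those of Jag1 and Dll4 are given as the ligands whose GB was higher at each later stage. GB of Rbpj, and of Notch1 and Notch2, whose regions are not shown, was also higher at each later stage. Each sequence gives the 250 bases before a RefSeq start site on GRCm38.p6, 5′ to 3′ on the gene's strand. Capitals mark 6-base matches on either strand to the core site of RBPJ, TGGGAA or its reverse TTCCCA, and to the HES repressor site CACGCG or its reverse CGCGTG. The palindromic E-box CACGTG was also searched. Jag1 is at chr2:137116521-137116770, minus strand, and Dll4 at chr2:119325534-119325783, plus strand. The inner start of Dll1, from which its deposited window runs, follows chr17:15375824-15376073, and the outer start follows chr17:15376933-15377182, both on the minus strand. The outermost start of Rbpj in the promoter table follows chr5:53590096-53590345, plus strand.
Jag1: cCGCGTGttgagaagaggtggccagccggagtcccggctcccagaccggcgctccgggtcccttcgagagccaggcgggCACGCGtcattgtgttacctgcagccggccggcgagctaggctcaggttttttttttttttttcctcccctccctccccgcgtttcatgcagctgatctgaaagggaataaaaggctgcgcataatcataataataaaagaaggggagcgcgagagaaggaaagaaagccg
Dll4: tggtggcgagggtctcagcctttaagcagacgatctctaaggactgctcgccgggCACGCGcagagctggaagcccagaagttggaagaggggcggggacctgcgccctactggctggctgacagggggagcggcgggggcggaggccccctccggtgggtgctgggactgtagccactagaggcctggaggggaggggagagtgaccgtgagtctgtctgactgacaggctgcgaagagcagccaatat
Dll1 inner start: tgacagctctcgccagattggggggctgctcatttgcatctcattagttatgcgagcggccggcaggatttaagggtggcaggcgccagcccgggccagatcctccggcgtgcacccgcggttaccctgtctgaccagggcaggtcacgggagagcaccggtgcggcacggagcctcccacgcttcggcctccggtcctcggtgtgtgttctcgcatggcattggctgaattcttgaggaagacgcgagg
Dll1 outer start: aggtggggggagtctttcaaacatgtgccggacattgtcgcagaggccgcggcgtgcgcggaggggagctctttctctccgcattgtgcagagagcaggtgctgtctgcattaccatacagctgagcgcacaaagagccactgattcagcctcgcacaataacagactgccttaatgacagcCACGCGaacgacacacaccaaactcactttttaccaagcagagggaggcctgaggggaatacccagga
Rbpj: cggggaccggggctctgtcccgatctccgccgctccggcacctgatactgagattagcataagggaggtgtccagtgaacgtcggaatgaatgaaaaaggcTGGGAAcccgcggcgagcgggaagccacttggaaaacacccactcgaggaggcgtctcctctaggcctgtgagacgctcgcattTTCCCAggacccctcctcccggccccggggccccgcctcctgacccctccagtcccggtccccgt

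Jag1 held 2 HES sites, 249 and 171 bases before the start, and Dll4 held 1, at 195 bases. Notch2, not shown, held 1 at 42 bases. The outer Dll1 region held 1 at 68 bases and the inner region held no match to the 3 motifs. Rbpj held the RBPJ core in both orientations, 149 and 65 bases before this start. A second listed start of Rbpj had 1 match to that core, at 205 bases. No match to the 3 motifs was found in the regions of Notch1, Notch3 and Jag2. Of all 32851 RefSeq start regions of the same length, 21.6% held the RBPJ core, 7.62% the HES site and 6.02% the E-box. Matches are given as a description. Starts were found for 8 of the 10 genes, leaving out Hes1 and Hey1. Taking the first listed start of each, these regions were rich in CpG, with 14 to 54 CpG in 250 bases (median 20.5). The median over all start regions was 6. The HES site itself holds CpG, so the 7.62% over all start regions is not a background of like CpG content.

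GB signal was above the library median in 7 of the 10 genes at E11.5, in 9 at E13.5 and in 8 at E15.5. The median percentile of the 10 genes among identified rows was 70.7, 80.0 and 79.5% in the same order, where 50% is the middle of all rows. The genes ranged widely at each stage, for example from the 10.2% to the 98.0% percentile at E15.5. In sorted bulk cells, fewer marked cells and less of the mark per cell cannot be told apart. Markers of the epithelium and of other cell types could not be looked up, because the tables used here pair no identifier with a symbol, so the purity of the sort was not checked.

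Among the receptors, Notch1 (ENSMUSG00000026923, chr2:26457902-26503822) had the highest GB at each stage. This receptor is known from pancreatic progenitor cells. Its GB (deposited units) was 0.0170 for E11.5, 0.0222 for E13.5 and 0.0540 for E15.5, at the 94.9, 97.8 and 98.0% percentiles. Against rows with a window within 1.5 times its length it stood at the 99.5, 99.9 and 99.96% percentiles of 3651 rows. Notch1 was therefore near the top of its length class in each library, and its window sums were large, at 4836, 6078 and 15229 steps. A lncRNA gene, 0610009E02Rik, overlaps 1489 bases of Notch1, and signal of overlapping genes cannot be separated here.

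The PR window of Notch1 followed another course than its body. PR was 0.0190, 0.00385 and 0.0509 in stage order, so that E13.5 was the lowest of the stages, at the 51.1% percentile, against 96.9% at E11.5 and 97.0% at E15.5. The part of SE outside PR had no such dip, at 0.0186, 0.0180 and 0.0232. At E13.5 PR was 0.174 times GB in Notch1, against 1.11 at E11.5 and 0.943 at E15.5. The PR sum behind the low value was 138 steps.

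Notch2 (ENSMUSG00000027878, chr3:98013538-98150367), a receptor with a much longer gene, was more even across stages. Its GB was 0.00724, 0.00811 and 0.0104 in stage order, at the 72.4, 79.3 and 78.1% percentiles. Among rows of like length these were the 89.2, 93.8 and 95.0% percentiles, so Notch2 was high for its length in all 3 libraries. Its PR, at 0.0113, 0.00921 and 0.0175, was above its GB at each stage.

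Notch3 (ENSMUSG00000038146, chr17:32120820-32166896), a receptor best known from the smooth muscle cells and pericytes of vessels, changed least in GB. Its GB was 0.00670, 0.00847 and 0.00791 in stage order, and the highest value was 1.26 times the lowest. PR of Notch3 was 0.00615, 0.0186 and 0.0152, so that E11.5 was the low stage. The PR percentile peaked at E13.5, at 97.7%, against 63.7% at E11.5 and 71.1% at E15.5. The lncRNA gene Gm38585 overlaps 10673 bases of Notch3, more than any other neighbour of the 10 genes overlaps its partner.

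**Figure D2:**
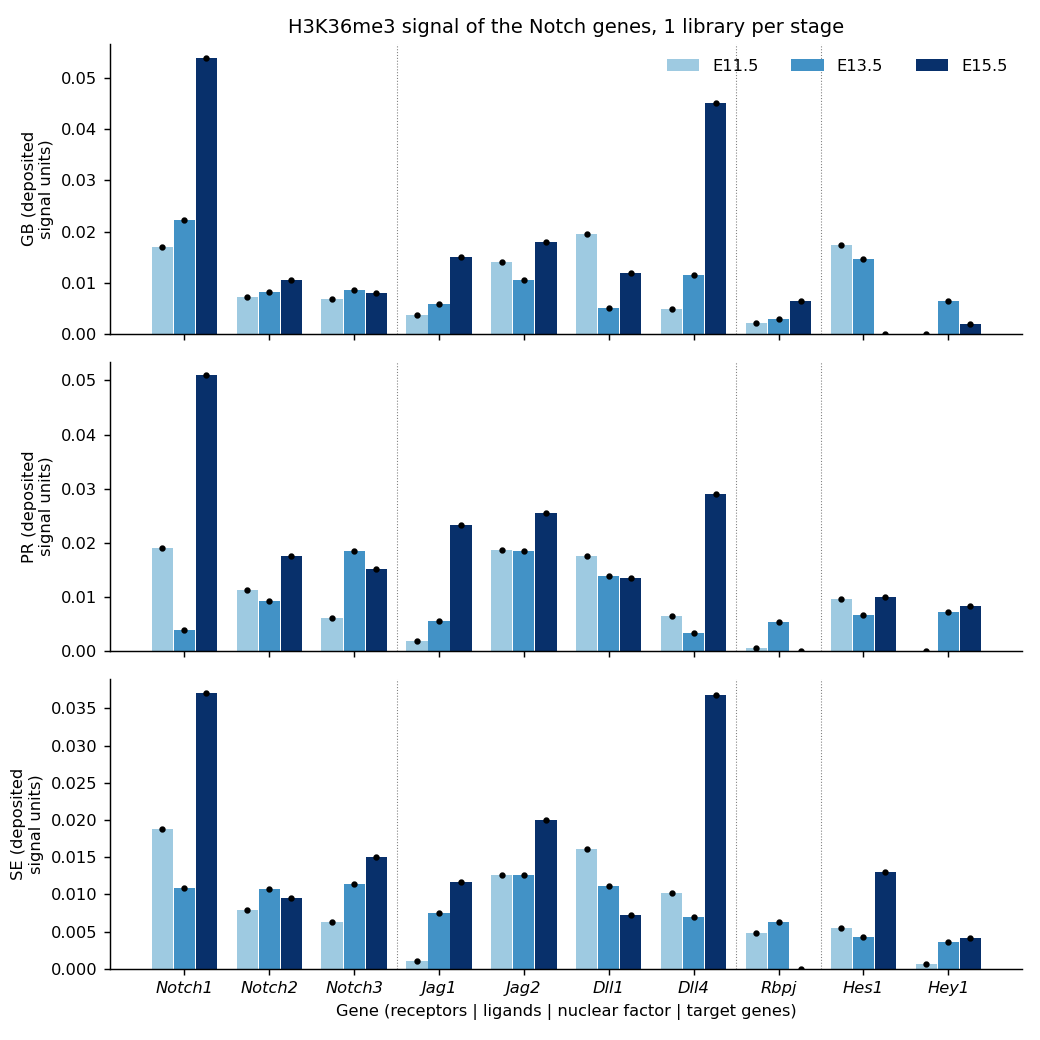
GB, PR and SE signal in deposited units (y axes, from 0) for the 10 genes at the 3 stages, light to dark with age, 1 library per bar. GB of Notch1 and Dll4 at E15.5, at 0.0540 and 0.0451, stands above that of the other genes, whereas GB of Hes1 at E15.5 and of Hey1 at E11.5 is at 0.

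The ligands Jag1 and Dll4 had higher GB at each later stage, as did Notch1, Notch2 and Rbpj. Jag1 (ENSMUSG00000027276, chr2:137081451-137116520), a Jagged ligand, had GB of 0.00363, 0.00577 and 0.0150 in stage order, at the 43.0, 64.6 and 85.3% percentiles. Among rows of like length it moved past most others, with the 29.0, 58.5 and 92.9% percentiles of 4226 rows. PR of Jag1 was 0.00189, 0.00558 and 0.0232, also in rising order. Its part of SE outside PR was not in that order, at 0.000108, 0.00932 and 0 in deposited units. The gene Slx4ip lies 99 bases from the edge of Jag1 opposite to its start.

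Dll4 (ENSMUSG00000027314, chr2:119325784-119335666), a Delta ligand best known from the endothelium of growing vessels, had the largest GB ratio at E15.5 over E11.5 of the 8 genes above 0 in both libraries. Its GB was 0.00482, 0.0116 and 0.0451 in stage order, at the 54.8, 89.9 and 97.3% percentiles. Among rows of like length these were the 39.8, 84.6 and 98.2% percentiles. PR of Dll4 was 0.00648, 0.00341 and 0.0291, and the part of SE outside PR was 0.0140, 0.0105 and 0.0445, so E15.5 was the high stage in every column. Endothelial marker genes could not be looked up, and their part in this value was not tested.

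Jag2 (ENSMUSG00000002799, chr12:112907803-112929812), the other Jagged ligand, was in the upper ranks at each stage. Its GB was 0.0141, 0.0106 and 0.0179 in stage order, at the 92.2, 87.7 and 88.2% percentiles. The value at E15.5 was the largest but its rank was lower than at E11.5. The top 10% of identified rows began at a GB of 0.0201 at E15.5, against 0.0126 at E11.5. PR of Jag2 was 0.0187, 0.0184 and 0.0255, above GB at each stage.

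Dll1 (ENSMUSG00000014773, chr17:15367354-15376932), a Delta ligand known from cells entering the endocrine path, was highest at the earliest stage. Its GB was 0.0195, 0.00498 and 0.0119 in stage order, at the 96.4, 57.8 and 80.9% percentiles. The part of SE outside PR ran down over the stages, at 0.0145, 0.00848 and 0.000868. PR was less variable in value, at 0.0176, 0.0138 and 0.0136, but its percentiles were 96.0, 93.5 and 67.8%. The GB sum at E13.5 was 252 steps, the smallest of the 7 receptor and ligand genes in that library.

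Rbpj (ENSMUSG00000039191, chr5:53555779-53657445), the DNA-binding partner of the cut receptor, had low GB signal for its length at first and more at E15.5. Its GB was 0.00207, 0.00286 and 0.00648 in stage order, at the 28.1, 35.1 and 65.5% percentiles. Among 2209 rows of like length the percentiles were 8.67, 18.8 and 78.2%. Its PR and SE did not follow: PR was 0.000593, 0.00536 and 0, and SE 0.00475, 0.00624 and 0, although the GB sum at E15.5 was 4044 steps. PR was at 0 in 22.1% and SE in 11.0% of identified rows of that library. These shares were 7.59 and 1.97% at E11.5 and 11.9 and 2.87% at E13.5. The recovered GB window has the length of the whole RefSeq gene, and the start shown above lies 34567 bases inside the outer edge, so PR and SE windows placed on either edge of the gene would not reach it.

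**Figure D3:**
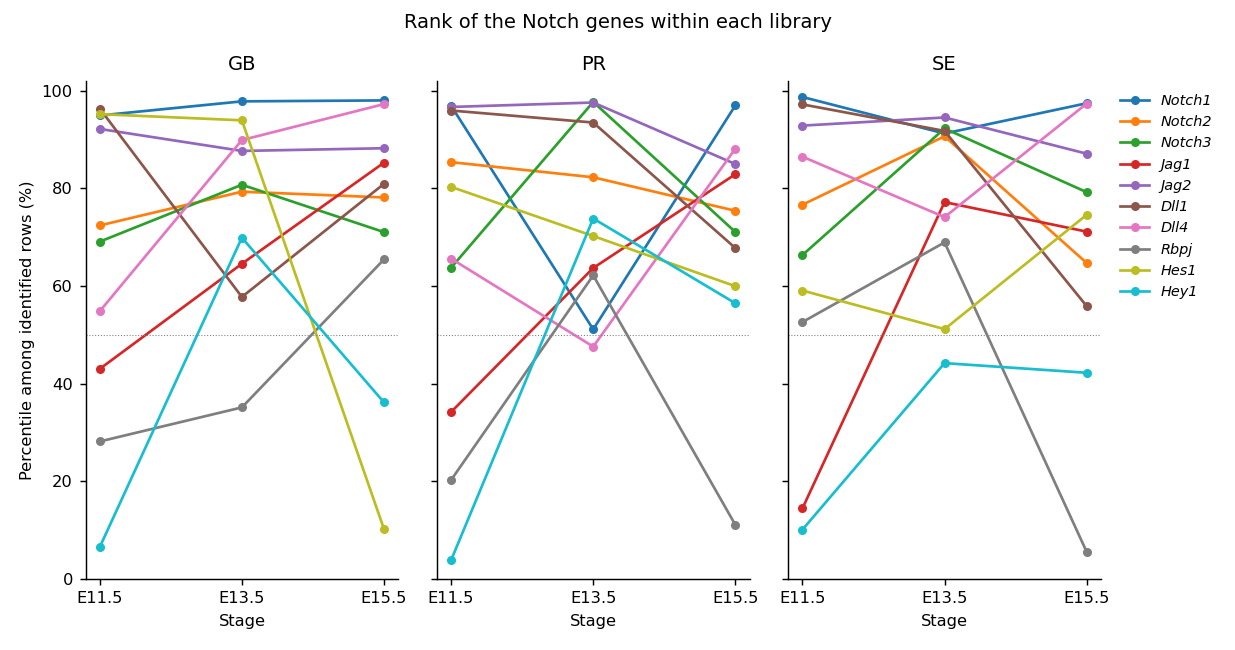
Percentile of each gene among identified rows of the same library (y axis, %) for GB, PR and SE at the 3 stages, with a dotted line at 50%. Notch1, Jag1, Dll4 and Rbpj have higher GB percentiles at each later stage. GB of Hes1 drops to the tied rows at 0 at E15.5, and PR and SE of Rbpj do the same.

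The target genes Hes1 and Hey1, both repressors of the basic helix-loop-helix class, are short, and their values rest on little signal. Hes1 (ENSMUSG00000022528, chr16:30065357-30067796) had GB of 0.0174, 0.0146 and 0 in stage order, at the 95.2, 93.9 and 10.2% percentiles, from sums of 262, 213 and 0 steps over 2440 positions. The value of 0 at E15.5 is shared with 20.3% of identified rows. PR of Hes1 was 0.00966, 0.00667 and 0.00999, so that E13.5 was the low stage. Its PR percentile was lower at each later stage, at 80.3, 70.2 and 59.96%. The PR sum was at least the GB sum in nearly all rows that short with GB above 0, which does not by itself show containment. If PR holds the whole Hes1 gene, the 3560 positions of PR outside the gene had a mean of 0.00437, 0.00122 and 0.0168. At E15.5 all of the PR signal of Hes1 then lay beside the gene and not over it. The lncRNA gene Gm32998 lies 66 bases from an edge of Hes1.

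Hey1 (ENSMUSG00000040289, chr3:8663359-8667038) was listed at 0 in GB and PR at E11.5. Its GB was 0, 0.00646 and 0.00186 in stage order, from 0, 142 and 42 steps over 3680 positions. PR was 0, 0.00731 and 0.00836, and SE 0.000593, 0.00366 and 0.00418. The part of SE outside PR was 0 at E13.5 and E15.5, so that all SE signal of Hey1 lay within its PR window at these stages. A gene annotated as LOC115489673 overlaps 115 bases of Hey1.

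The stages were then set against each other to follow the mark through pancreas formation. Ratios are log2 of later over earlier value, each with 0.001 added, and a gene counted as different where this reached 2-fold and the higher library reached a floor, which was the median of that column over the identified rows of the 3 libraries, 0.00413 for GB, 0.00407 for PR and 0.00460 for SE. E15.5 over E11.5 and E15.5 over E13.5 share the E15.5 library, and the other pairs share a library too, so they are not independent.

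For E13.5 over E11.5, GB was at least 2-fold higher in 2 of the 10 genes, Dll4 and Hey1, and at least 2-fold lower in 1, Dll1. Over all 16346 rows above the floor, 17.2% were higher and 19.4% lower, so the counts of the 10 genes were close to the background. Among rows of like length, 30.4% were higher for Hey1 and 18.7% for Dll4, and 25.3% were lower for Dll1. Dll4 GB was 0.0116 at E13.5 and 0.00482 at E11.5, a log2 ratio of 1.11. Dll1 GB was 0.00498 at E13.5 and 0.0195 at E11.5, a ratio of 0.255. Rbpj stayed under the floor in both libraries. The median log2 ratio was 0.31 over the 10 genes and 0.30 over the 9 above the floor, against -0.07 over all rows above the floor.

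For E15.5 over E13.5, GB was at least 2-fold higher in 4 of the 10 genes, Notch1, Jag1, Dll1 and Dll4, and lower in 2, Hes1 and Hey1. Over all rows 27.6% were higher and 22.1% lower. Among rows of like length, 12.6, 15.9, 38.0 and 36.2% were higher for Notch1, Jag1, Dll1 and Dll4. Lower were 32.6% for Hes1 and 29.4% for Hey1. Notch1 GB was 0.0540 at E15.5 and 0.0222 at E13.5, a ratio of 2.44. Its log2 ratio of 1.25 stood at the 77.5% percentile of all rows and at the 93.0% percentile of 2792 rows of like length. Rbpj had a ratio of 2.26, which the added 0.001 kept under the 2-fold threshold. Its log2 ratio of 0.95 stood at the 71.3% percentile of all rows and at the 94.2% percentile of rows of like length. Within their own length classes Jag1, Dll4 and Dll1 stood at 90.1, 84.1 and 64.9%. Notch2, Jag2 and Notch3 stood at 72.2, 66.3 and 40.9%, and Hey1 and Hes1 at 27.0 and 6.06%. The median log2 ratio over the 10 genes, all above the floor, was 0.83, against 0.22 over all rows above the floor. Their median GB percentile was 80.0% at E13.5 and 79.5% at E15.5, so as a group they did not gain in rank. The top 10% of identified rows began at a GB of 0.0116 at E13.5 and 0.0201 at E15.5. The median of identified rows was 0.00421 at E13.5 and 0.00371 at E15.5.

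For E15.5 over E11.5, GB was at least 2-fold higher in 4 of the 10 genes, Notch1, Jag1, Dll4 and Rbpj, and at least 2-fold lower in 1, Hes1. Over all 16048 rows above the floor 26.5% were higher and 22.8% lower, so the counts lie within 2 genes of the background. The log2 ratio was 2.99 in Dll4, 1.79 in Jag1, 1.61 in Notch1 and 1.28 in Rbpj. GB at E15.5 was 9.37, 4.13, 3.17 and 3.13 times that at E11.5 in the same order of genes. No fold is given for Hes1, which was listed at 0 at E15.5, nor for Hey1, listed at 0 at E11.5 and under the floor at both stages.

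The share of rows with such ratios depended on length, and the 4 genes differed in it. Among rows above the floor within 1.5 times the window length of Rbpj, 5.58% were at least 2-fold higher. The share was 12.3% for Notch1, 15.55% for Jag1 and 34.2% for Dll4. For Hes1, the gene called lower, 32.4% of such rows were at least 2-fold lower and 48.9% higher. Within these classes the ratios stood at the 97.8% percentile for Rbpj, 96.8% for Notch1, 96.6% for Jag1 and 96.5% for Dll4. Over all rows above the floor they stood lower, at 78.6, 83.3, 85.3 and 93.5% in the same order of genes. These 4 were named for being at least 2-fold higher in this same ratio, so high percentiles follow in part from the choice. In their own classes Notch2, Notch3, Jag2 and Dll1 stood at 80.1, 57.0, 55.2 and 30.2%, and Hes1 at 3.94%. Of the other genes, Notch2, Jag2 and Notch3 had E15.5 over E11.5 ratios of 1.44, 1.27 and 1.18, and Dll1 had 0.611. The median log2 ratio was 0.47 over the 9 genes above the floor, against 0.14 over all rows above the floor. With Hey1, which was under the floor, it was 0.88 over the 10 genes. Without both Hes1 and Hey1 it was again 0.88, so the median depended on which of these genes was left out. A pseudocount of 0.005 in place of 0.001 lowered the median over the 10 genes to 0.39.

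**Figure D4:**
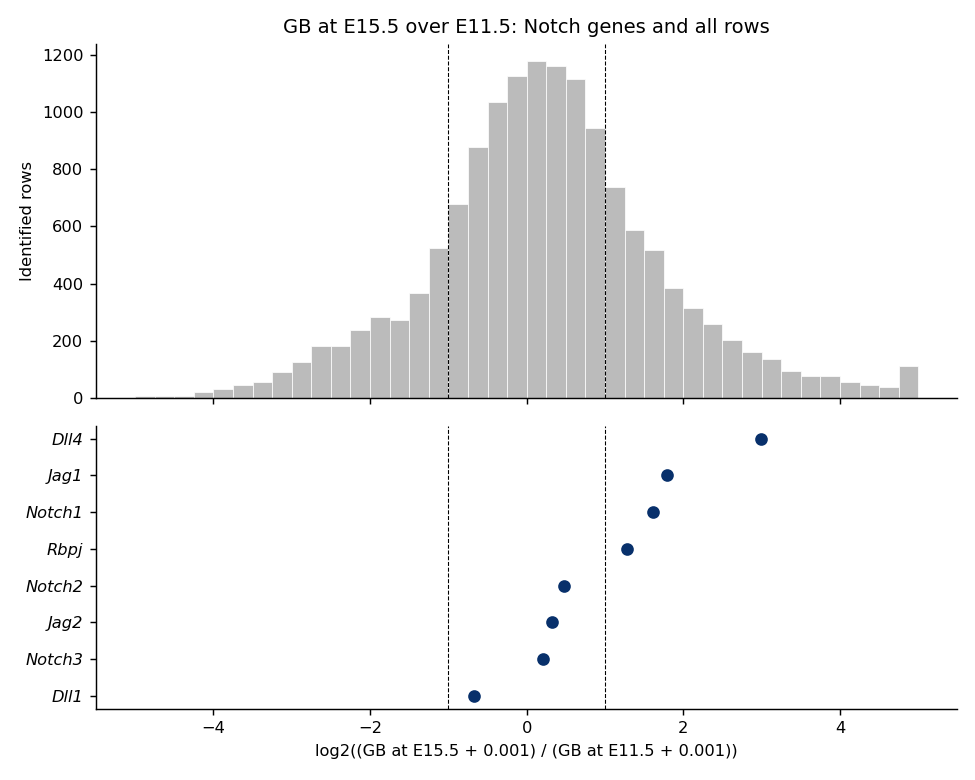
Log2 ratio of GB at E15.5 over E11.5 with 0.001 added to each value (x axis), for 14365 identified rows above the floor and above 0 in both libraries (histogram; 90 rows beyond the range are placed in the end bins) and for the 8 genes above 0 in both libraries (points). Dashed lines mark 2-fold, which Dll4, Jag1, Notch1 and Rbpj exceed upward and none of the other 4 exceeds.

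In PR, differences of 2-fold were common in all rows. For E15.5 over E11.5, PR was at least 2-fold higher in 5 of the 10 genes, Notch1, Notch3, Jag1, Dll4 and Hey1, and lower in 0. Over all 17716 rows above the floor 50.0% were higher and 26.0% lower. Jag1 PR was 0.0232 at E15.5 and 0.00189 at E11.5, a ratio of 12.3 from an E11.5 value under the floor. Its log2 ratio of 3.07 stood at the 84.7% percentile of all rows above the floor. For E15.5 over E13.5, PR was higher in 3 genes, Notch1, Jag1 and Dll4, where 52.2% of rows were, and lower in 1, Rbpj, where 24.7% were. For E13.5 over E11.5, it was higher in 4, Notch3, Jag1, Rbpj and Hey1, where 28.8% were, and lower in Notch1 alone, where 32.8% were. With each library divided by its median PR, 3 genes were at least 2-fold higher for E15.5 over E11.5, where 41.1% of rows were, and 0 lower, where 30.5% were.

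SE holds the PR window and is no separate evidence. For E15.5 over E11.5, SE was at least 2-fold higher in 4 genes, Notch3, Jag1, Dll4 and Hes1, where 42.7% of rows were, and lower in 2, Dll1 and Rbpj, where 19.7% were. For E15.5 over E13.5 it was higher in 3, Notch1, Dll4 and Hes1, where 45.7% were, and lower in 1, Rbpj, where 17.9% were. With each library divided by its median SE, 2 genes were higher and 2 lower in both of these comparisons, where 32.8% of rows were higher and 24.9% lower for E15.5 over E11.5, and 32.3% higher and 25.1% lower for E15.5 over E13.5. For E13.5 over E11.5 it was higher in 1, Jag1, where 19.9% were, and lower in 0, where 24.8% were.

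The stage of the highest value differed between genes. GB was highest at E15.5 in 6 of the 10 genes, at E13.5 in 2, Notch3 and Hey1, and at E11.5 in 2, Dll1 and Hes1. Over 18116 rows above the floor in some library, 41.9% were highest at E15.5, 26.9% at E13.5 and 31.2% at E11.5. PR exceeded GB in 4, 6 and 7 of the 10 genes in stage order, and in 44.9, 43.2 and 51.2% of all identified rows.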

How the data were processed

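The authors deposited 3 tables of signal, 1 per library, each with 25493 rows. Per the file headers, its columns are PR, GB and SE. Bowtie2 2.4.2 and mm10 are named, per the submitters' processing notes. Filtering, counting, scaling and gene models are not given in the sources used here, so the depth of a table is unknown and counting error cannot be bounded. The 1175 rows without an identifier, 4.61%, were left out. Where the series design and the labels disagreed on the day of the E13.5 library, the label was followed.

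Sums over the 6000 positions of PR and the 12000 of SE came in whole steps of 0.161884, 0.167429 and 0.162919 in stage order. This held within 0.05 steps in at least 99.9956% of values above 0. Of PR sums above 0, 93.0, 92.3 and 95.1% in stage order were even multiples of the step. Numbers of steps are therefore not counts of independent units of signal. GB lengths from 60 to 400000 positions were searched in rows above 0 in at least 2 libraries, which gave 19638 identified rows a length. On 1000 simulated windows, 848 got a length and 98.2% of these were exact.

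The genes and lists were chosen with earlier results of these data known. Gene names follow the list that chose them. The 10 genes are named in every case. The lists of other pathway genes and markers, kept as symbols, could not be used because the reference table held 0 Ensembl identifiers. Percentiles count tied rows at mid-rank. Computation used Python 3.11.15, numpy 2.4.6 and pandas 2.3.3. Each stage has 1 library, so no test was run.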

Additional observations from a re-analysis of the deposited data

How the results depend on the processing

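No paired analysis was possible because a stage is represented by 1 library. Values were recomputed with pseudocounts of 0.0001 and 0.005, no floor, a 1.5-fold threshold, each library divided by its median, other rank populations and, chosen after seeing the data, the median of rows above 0, the set without Hes1 and Hey1 and the genes above the floor alone. Of 81 recomputed counts, median ratios and median percentiles over the genes, 75 stayed within 1.5 times the main value, with ratios compared on the linear scale. The median percentiles, the lowest at 70.7%, had no room to rise by 1.5 times, so part of this count was fixed in advance. On the log2 scale the pseudocount of 0.005 gave median GB ratios of 0.18 instead of 0.31 for E13.5 over E11.5 and 0.39 instead of 0.88 for E15.5 over E11.5. The same pseudocount, which shrinks ratios by construction, left 3 instead of 6 genes at least 2-fold different for GB at E15.5 over E13.5, with 31.6 instead of 49.7% of all rows. It left 3 instead of 5 for PR at E13.5 over E11.5, with 35.8 instead of 61.5% of rows, and 2 instead of 6 for SE at E15.5 over E11.5, with 41.0 instead of 62.5%. Dividing by the median gave 3 instead of 5 for PR at E15.5 over E11.5, with 71.7 instead of 76.0% of rows, and the cause was not tested. For SE at E13.5 over E11.5, where 1 gene and 44.8% of rows differed, there were 2 genes and 41.1% without a floor and 3 genes and 66.4% at 1.5-fold.

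Dividing by the median turned the log2 GB ratio of Notch3 at E15.5 over E13.5 from -0.0880 to 0.0778. It moved the median log2 ratio of all rows at E15.5 over E11.5 by 0.19 for GB, -0.47 for PR and -0.36 for SE, and the median of rows above 0 moved that of GB by -0.08. The share of higher among all calls went from 67.9 to 57.2% for PR and from 71.9 to 56.3% for SE at E15.5 over E13.5, and from 68.4 to 56.9% for SE at E15.5 over E11.5. Among values of single genes, 23 of 236 moved by over 1.5 times, most often for Rbpj, Hes1 and Hey1. Scaling between libraries is not stated and 1 library per stage limits each comparison.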
